A study of Mus musculus with 27 samples.

Results

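The genes followed here belong to TGF-beta and Nodal signalling and were measured through loss of Dicer in mouse embryonic stem cells. They are the ligand gene Nodal, the co-receptor gene Tdgf1, the receptor genes Acvr1b, Acvr2a, Tgfbr1, Tgfbr2 and Tgfbr3, and the inhibitor genes Lefty1, Lefty2 and Smad7. These 10 genes were chosen by name, with earlier results of these data known, and matched to the Ensembl identifiers through GENCODE M21. All 10 of them were found among the 38123 genes and passed the filter on low values. The cells were the XY line DTCM23/49, which carries a conditional Dicer allele in every group and was kept on gelatin-coated plates in medium with serum and LIF. The RNase III domain of Dicer was deleted by adding 800 nM of 4-hydroxytamoxifen, after which colonies lacking Dicer were selected and expanded. Polyadenylated RNA was sequenced from nuclear and cytoplasmic fractions of days 0 and 12 and from whole cells of those days and of days 4, 8 and 10, with 3 biological replicates in each of the 9 groups. Day 0 libraries came from cells before induction, and no later library is labelled as an ethanol control. Loss of Dicer, exposure to the drug, time in culture and the expansion of colonies therefore cannot be told apart here.

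Ligands of the TGF-beta family bind a pair of receptor serine/threonine kinases, a type II receptor that phosphorylates a type I receptor, which in turn phosphorylates Smad proteins that carry the signal into the nucleus. TGF-beta itself uses Tgfbr2 and Tgfbr1, with Tgfbr3 (betaglycan) as a ligand-presenting co-receptor, while Nodal uses Acvr2a or its relative Acvr2b, Acvr1b and the membrane-anchored co-receptor Tdgf1 (Cripto). Nodal signalling switches on its own secreted antagonists Lefty1 and Lefty2, and Smad7 acts inside the cell as an inhibitor of the receptors. Mouse embryonic stem cells in serum make Nodal themselves, and the microRNA families miR-290 and miR-302 need Dicer to mature.

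Several microRNAs of these families share a seed, bases 2 to 8 from the 5′ end, the stretch that pairs with targets. They are shown because Dicer makes them and because 4 of the 10 genes hold a match to this seed. The mature sequences below come from RefSeq (GRCm38.p6), with the seed in capitals.
mmu-miR-291a-3p: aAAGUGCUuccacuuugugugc
mmu-miR-294-3p: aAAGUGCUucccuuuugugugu
mmu-miR-295-3p: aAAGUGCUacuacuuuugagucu
mmu-miR-302b-3p: uAAGUGCUuccauguuuuaguag
mmu-miR-302d-3p: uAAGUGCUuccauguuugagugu
The match searched for was AGCACTT, the reverse complement of that seed, on the sense strand of the longest annotated 3′ UTR of each gene. It was found in 14.6% of all 20967 protein-coding genes with a 3′ UTR and in 16.8% of the 12715 of them tested in whole cells. Among the 10 genes it was found 3 times in Tgfbr2 and once each in Tgfbr1, Lefty1 and Lefty2.

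The UTRs of these 4 genes differ greatly in length, which sets how often a match turns up. Tgfbr2 has 6085 bases of 3′ UTR, and 60.4% of the 419 tested genes whose UTR length lay within 80 to 120% of that held a match. The corresponding shares were 39.1% for Tgfbr1 (4154 bases), 14.7% for Lefty2 (1290 bases) and 4.44% for Lefty1 (425 bases). The sites are printed 5′ to 3′ with the match in capitals, together with an A that directly follows it where there is one, and with GRCm38 coordinates of the printed stretch.
Tgfbr1 site, chr4:47411105-47411127, plus strand: gtggcactaaatgaAGCACTTct
Tgfbr2 site 1, chr9:116089879-116089901, minus strand: ctcgggatagcgttAGCACTTga
Tgfbr2 site 2, chr9:116087769-116087792, minus strand: atatcaaaacctaaAGCACTTAtt
Tgfbr2 site 3, chr9:116085354-116085376, minus strand: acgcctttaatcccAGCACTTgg
Lefty1 site, chr1:180938199-180938222, plus strand: tgcactgtatgcgaAGCACTTAca
Lefty2 site, chr1:180897903-180897926, plus strand: catcacccagtttaAGCACTTAca
The printed stretch of the third Tgfbr2 site also occurs in the 3′ UTRs of 73 other genes, and those of the other sites in none. The Lefty1, Lefty2 and second Tgfbr2 sites are followed by an A, a form found in 3.36% of the tested genes. That share covers UTRs of all lengths (median 1106 bases) and was not matched to the length of these UTRs. No match was found in Tgfbr3, Acvr1b, Acvr2a, Nodal, Tdgf1 or Smad7, which says only that these letters are not in those UTRs, and no match was tested as a site of binding.

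The targeted gene checks the labels. Dicer1 stood at 15, 16 and 17.9 FPKM (fragments per kilobase of transcript, scaled to the size of the library) in the whole cell libraries of day 0, and its mean was 8.63%, 10.5% and 11.2% of that at days 4, 8 and 10. In the fractions at day 12 it was at 31.6% of day 0 in the nucleus and 13.6% in the cytoplasm, each of these 5 comparisons at the smallest p that 3 against 3 allows (exact permutation test, 2-sided, p = 0.1). The whole cell libraries labelled day 12 held 16.7, 13.8 and 13.4 FPKM of Dicer1, 89.7% of day 0 (exact permutation test, p = 0.3). Dicer1 thus goes against that label, the FPKM values do not show the deleted exons separately, and each direction drawn from the whole cell libraries labelled day 12 carries that reservation.

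Across the series 12218 to 14023 genes per library reached 1 FPKM. Depth relative to whole cell day 4 replicate 1, read from the smallest steps among low FPKM values, ranged from 0.719 to 3.62, and whole cells of day 0 were deepest (3.06 to 3.62). The 5 embryonic stem cell markers summed to 787 to 974 FPKM in whole cells and none of them was at 0. At day 10, 1 of the 5 passed in limma as higher than at day 0 and 1 as lower, where 27.7% and 16% of all genes did. Pou5f1 went from 332 ± 15.8 FPKM at day 0 to 385 ± 20.1 at day 10 (SD, n = 3), and Sox2 from 169 ± 5.99 to 130 ± 3.66. Nucleus day 0 replicate 3, nucleus day 12 replicate 1 and whole cell day 4 replicate 3 stood apart from the other libraries of their groups, with mean correlations of 0.923, 0.944 and 0.946. The summed level of 5 fibroblast markers was 16.2 to 29.1 FPKM in the nucleus at day 0, against 2.18 to 9.26 in all other groups. Levels below are FPKM and are comparable between genes because they are scaled for length. Changes are differences of mean log2(FPKM + 0.5), given with their SE and limma's adjusted p, and all comparisons with day 0 of whole cells share the same 3 control libraries. In these bulk samples, fewer cells of a type and less RNA per cell cannot be told apart.

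**Figure D1:**
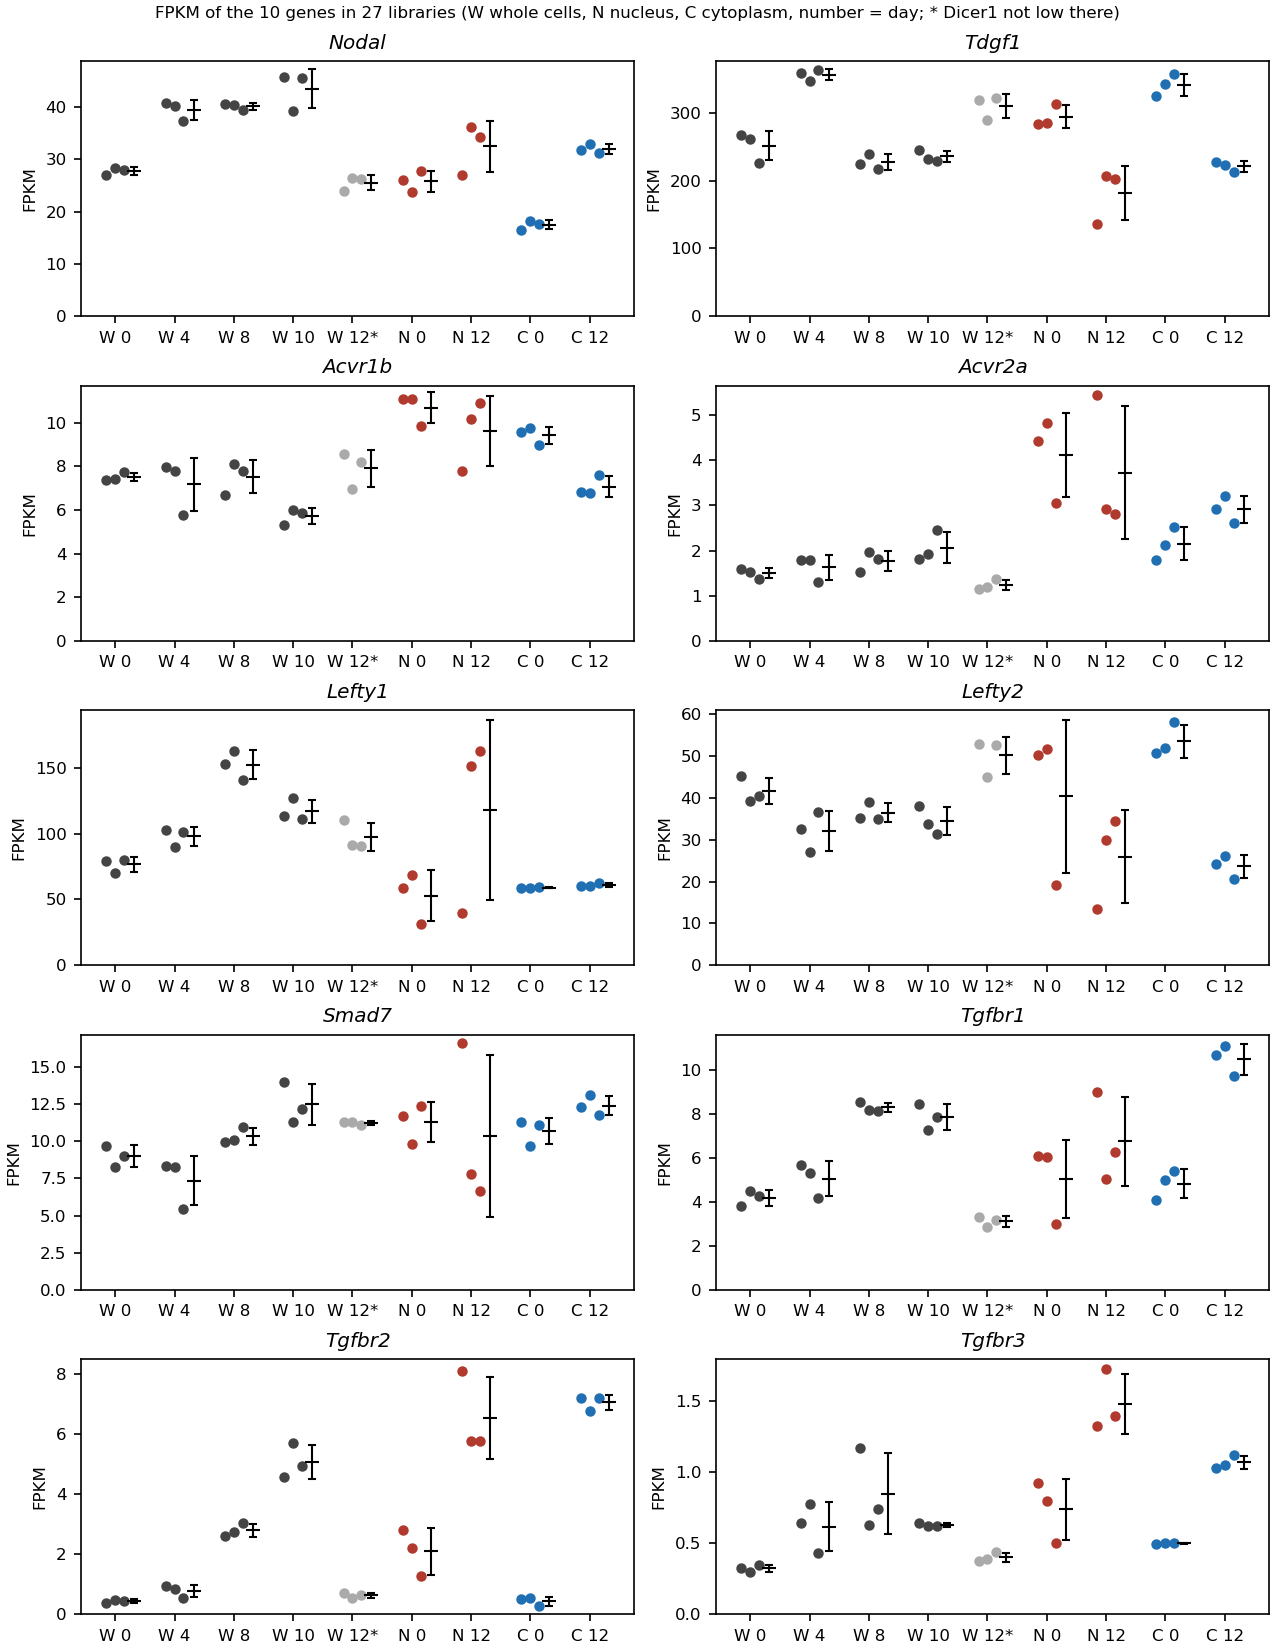
FPKM of each of the 10 genes (vertical axes, from 0) in the 27 libraries by group (horizontal axes; W whole cells, N nucleus, C cytoplasm, with the day). Points are libraries and bars are the mean ± SD of 3; Tgfbr2 climbs from below 0.5 FPKM in whole cells at day 0 to between 4.58 and 5.71 at day 10, while in nuclei several genes have 1 library far from the other 2.

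Nodal, the ligand, was higher from day 4 on. Its whole cell libraries held 27, 28.4 and 27.9 FPKM at day 0, 40.8, 40.2 and 37.3 at day 4, 40.6, 40.4 and 39.4 at day 8, and 45.8, 39.2 and 45.5 at day 10. Every library of days 4, 8 and 10 lay above every library of day 0. The log2 changes were 0.50 ± 0.07 at day 4 (limma, adjusted p = 0.000893), 0.52 ± 0.07 at day 8 (adjusted p = 0.000186) and 0.63 ± 0.07 at day 10 (adjusted p = 1.9e-05), ratios of means of 1.42, 1.44 and 1.56. Most of this rise was reached by day 4, since day 8 against day 4 gave 0.03 (95% interval -0.14 to 0.19, limma adjusted p = 0.843). Nodal was at 24.0, 26.5 and 26.2 FPKM in the whole cell libraries labelled day 12, and this difference from day 0 did not pass (limma, -0.12, adjusted p = 0.331).

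Tdgf1, the Nodal co-receptor, had the highest levels of the 10 genes and followed another course. It stood at 267, 262 and 227 FPKM in whole cells at day 0 and at 359, 348 and 364 at day 4, with no overlap, and rose by 0.51 ± 0.08 (limma, adjusted p = 0.000955). At day 8 the 3 libraries were back at 225, 240 and 217 FPKM, a fall against day 4 of -0.65 ± 0.08 (limma, adjusted p = 0.000145), and at day 10 they held 246, 232 and 230 FPKM. Neither day 8 (-0.14, adjusted p = 0.185) nor day 10 (-0.09, adjusted p = 0.371) passed against day 0 in limma. Nodal and Tdgf1 were thus both higher at day 4, while at days 8 and 10 Nodal was higher and Tdgf1 did not pass. In the libraries labelled day 12 Tdgf1 was higher (0.31, limma adjusted p = 0.0194) and Nodal did not pass (-0.12, adjusted p = 0.331). Of the stretches of 100 bases in Tdgf1 transcripts, 3.17% also occur in the pseudogene Tdgf1-ps1, and how reads with several matches were treated is not given in the sources used here.

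At day 4, Nodal and Tdgf1 were the 2 of the 10 genes that passed against day 0, where 6.7% of the 15991 genes tested passed. Both rose, and 4.88% of all genes passed as higher. Ranges that did not overlap with day 0 were found for 6 of the 10 genes, 5 above and 1 below, against 19.3% of all genes tested. Fitted with the libraries of days 0 and 4 alone, neither gene passed in limma (Nodal adjusted p = 0.0564, Tdgf1 adjusted p = 0.0861), and 4 of the 10 then had an unadjusted p under 0.05. Without whole cell day 4 replicate 3, which stood apart and held 122 FPKM of the nuclear RNA Malat1 against 39.4 and 54.9 in its group, 5 of the 10 passed, adding Tgfbr1 (0.36, adjusted p = 0.0235), Tgfbr2 (0.57, adjusted p = 0.00886) and Lefty2 (-0.48, adjusted p = 0.0115).

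The receptors that serve Nodal and activin moved little. Acvr1b, the type I receptor of activin and Nodal (ALK4), held 7.37, 7.42 and 7.74 FPKM in whole cells at day 0 and 5.29, 5.99 and 5.86 at day 10. The day 10 libraries all lay lower, and the fall of -0.37 ± 0.12 passed (limma, adjusted p = 0.0269). This call was lost when any of 5 libraries was left out, whole cell day 0 replicates 1, 2 or 3 or day 10 replicates 1 or 3 (adjusted p = 0.052 to 0.0935). Acvr2a, a type II receptor of activin and Nodal, held 1.60, 1.53 and 1.37 FPKM at day 0 and 1.82, 1.92 and 2.46 at day 10. Its ranges did not overlap, and the change of 0.35 ± 0.14 stood just outside the threshold (limma, adjusted p = 0.0505). It passed when whole cell day 4 replicate 3 (adjusted p = 0.0215) or day 10 replicate 1 (0.42, adjusted p = 0.0466) was left out, with only those groups fitted (adjusted p = 0.0438) and with a pseudocount of 1 (adjusted p = 0.0481). At days 4 and 8 neither receptor gene passed, with changes between -0.07 and 0.18.

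The Lefty genes, neighbours on chromosome 1 that encode secreted antagonists of Nodal, parted from each other. Lefty1 (chr1:180935022-180938400) held 79.3, 70.0 and 80.2 FPKM in whole cells at day 0, 103, 89.6 and 101 at day 4, 153, 163 and 141 at day 8, and 113, 127 and 111 at day 10. Every later library lay above day 0, with the highest levels at day 8. The change at day 4 narrowly missed the threshold (limma, 0.35 ± 0.10, adjusted p = 0.0503), day 8 gave 0.99 ± 0.10 (adjusted p = 9.62e-06) and day 10 gave 0.61 ± 0.10 (adjusted p = 0.000234). Between days 8 and 10 Lefty1 fell by 0.38 ± 0.10 (limma, adjusted p = 0.0331), a call that was lost without whole cell day 8 replicates 1 or 2 or day 10 replicates 1 or 3 (adjusted p = 0.0996 to 0.12).

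Lefty2 (chr1:180893108-180899103), which encodes a protein of the same function, showed no rise at those days. It held 45.3, 39.3 and 40.5 FPKM at day 0, 32.5, 27 and 36.6 at day 4, 35.2, 39.1 and 35.1 at day 8, and 38.1, 33.8 and 31.4 at day 10. All later libraries lay below the lowest of day 0, by little at day 8, and none of the differences passed in limma (-0.38 with adjusted p = 0.0723, -0.19 with adjusted p = 0.244, and -0.28 with adjusted p = 0.0709). At day 4 it passed with quantile normalization (-0.46, adjusted p = 0.0182) and without whole cell day 4 replicate 3 (-0.48, adjusted p = 0.0115). At day 10 it passed with median-of-ratios scaling (-0.39, adjusted p = 0.0354) and with quantile normalization (-0.36, adjusted p = 0.0137), with only those groups fitted (-0.28, adjusted p = 0.0295), and without whole cell day 4 replicates 2 or 3 or day 10 replicate 1 (adjusted p = 0.0276 to 0.0477).

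Within a library the Lefty1 to Lefty2 ratio does not depend on how libraries are scaled. In whole cells it was 1.75, 1.78 and 1.98 at day 0, 3.16, 3.32 and 2.75 at day 4, 4.35, 4.18 and 4.02 at day 8, and 2.97, 3.77 and 3.55 at day 10. The 9 later libraries all lay above the 3 of day 0, and each day gave p = 0.1 against day 0, the smallest an exact permutation test of 3 against 3 can give. The libraries labelled day 12, where Dicer1 was not low, had ratios of 2.07, 2.03 and 1.72, which overlapped those of day 0 (exact permutation test, p = 0.5). Both genes carry the seed match followed by A shown above. Their coding sequences are 92.3% identical over 1105 aligned bases, and 5.85% of the 100-base stretches in Lefty1 transcripts also occur in Lefty2 (3.86% of those in Lefty2), so a part of the reads could be assigned to either gene.

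**Figure D2:**
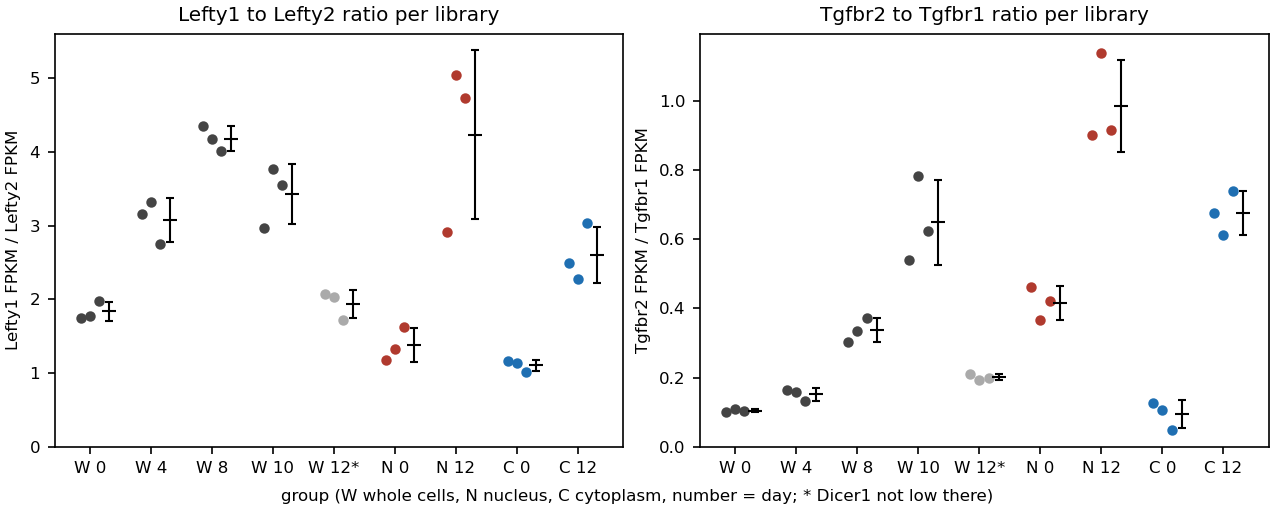
Ratio of Lefty1 to Lefty2 FPKM (left) and of Tgfbr2 to Tgfbr1 FPKM (right) in each library, by group; points are libraries and bars the mean ± SD of 3. Left, whole cells go from 1.84 at day 0 to 4.18 at day 8; right, whole cells go from 0.104 at day 0 to 0.649 at day 10.

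Smad7, the intracellular inhibitor of the receptors and a target of TGF-beta and Nodal signals, passed against day 0 at day 10, and the step from day 8 to day 10 did not pass (0.26, limma adjusted p = 0.312). It held 9.70, 8.25 and 9.04 FPKM in whole cells at day 0, 8.37, 8.24 and 5.44 at day 4, 9.93, 10.1 and 11 at day 8, and 14, 11.3 and 12.2 at day 10. Days 8 and 10 lay above day 0 without overlap, day 8 by a narrow margin. The day 10 change was 0.45 ± 0.14 (limma, adjusted p = 0.0175), lost when whole cell day 0 replicate 2 (0.39, adjusted p = 0.0683) or day 10 replicate 1 (0.37, adjusted p = 0.076) was left out, and day 8 gave 0.19 (adjusted p = 0.329). Day 8 against day 4 gave 0.49 ± 0.14 (limma, adjusted p = 0.0251), where the low day 4 value rests in part on replicate 3, and that call was lost with only the 2 groups fitted (adjusted p = 0.191) and without each day 8 library (adjusted p = 0.055 to 0.0865).

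Of the 10 genes, Tgfbr2 had the largest change at days 8 and 10. Tgfbr2, the type II receptor that binds TGF-beta (chr9:116084293-116175360), held 0.382, 0.488 and 0.445 FPKM in whole cells at day 0, 0.932, 0.844 and 0.549 at day 4, 2.60, 2.75 and 3.04 at day 8, and 4.58, 5.71 and 4.93 at day 10. Each group lay above the one before it with no overlap. Against day 0 the log2 changes were 0.43 ± 0.13 at day 4 (limma, adjusted p = 0.0831), 1.81 ± 0.13 at day 8 (adjusted p = 8.63e-07) and 2.57 ± 0.13 at day 10 (adjusted p = 1.67e-08). The steps from day 4 to day 8 (1.38 ± 0.13, adjusted p = 3.65e-05) and from day 8 to day 10 (0.75 ± 0.13, adjusted p = 0.00458) passed in limma too. As ratios of means these levels were 1.77, 6.39 and 11.6 times that of day 0, and the change on the log2 scale is smaller because the added 0.5 is as large as the day 0 level.

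Tgfbr1, the type I receptor for TGF-beta (ALK5), held 3.80, 4.49 and 4.29 FPKM at day 0, 5.69, 5.32 and 4.19 at day 4, 8.57, 8.21 and 8.17 at day 8, and 8.49, 7.30 and 7.90 at day 10. Days 8 and 10 stood apart from day 0 at 1.98 and 1.88 times its mean, and day 4 overlapped it. The changes were 0.24 ± 0.11 at day 4 (limma, adjusted p = 0.274), 0.91 ± 0.11 at day 8 (adjusted p = 4.71e-05) and 0.84 ± 0.11 at day 10 (adjusted p = 4.65e-05). From day 8 to day 10 Tgfbr1 gave -0.07 (95% interval -0.31 to 0.17, limma adjusted p = 0.78), while Tgfbr2 went on rising. The Tgfbr2 to Tgfbr1 ratio accordingly went from 0.104 ± 0.00413 (SD, n = 3) at day 0 to 0.151 ± 0.0177 at day 4. It then stood at 0.337 ± 0.0343 on day 8 and reached 0.649 ± 0.123 on day 10. All libraries of each later day lay above day 0, those labelled day 12 at 0.201 ± 0.00827 included (exact permutation test, p = 0.1, the smallest possible).

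Tgfbr3, the co-receptor, had the lowest mean of the 10 genes in every whole cell group. It held 0.325, 0.296 and 0.345 FPKM at day 0, 0.640, 0.772 and 0.430 at day 4, 1.17, 0.628 and 0.742 at day 8, and 0.643, 0.616 and 0.621 at day 10. Every later library lay above day 0. The changes were 0.69 ± 0.16 at day 8 (limma, adjusted p = 0.00588) and 0.46 ± 0.16 at day 10 (adjusted p = 0.037). The day 10 call was lost with quantile normalization (0.21, adjusted p = 0.266), with the libraries labelled day 12 left out (adjusted p = 0.0582), and without any of the day 0 or day 10 libraries (adjusted p = 0.0689 to 0.0946). Of its 100-base stretches 3.1% also occur in the gene model Gm43422.

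At day 8, 5 of the 10 genes passed against day 0, all higher (Tgfbr1, Tgfbr2, Tgfbr3, Nodal and Lefty1), where 29.8% of all genes tested passed, 20.2% as higher and 9.62% as lower. At day 10, 6 of the 10 were higher (those 5 and Smad7) and 1, Acvr1b, was lower, where 43.7% of all genes passed, 27.7% as higher and 16% as lower. Non-overlapping ranges were found for 7 of 10 genes at day 8 and 9 of 10 at day 10, against 54.1% and 63.8% of all genes. Of all calls at day 8 67.7% were higher, 56.3% under median-of-ratios scaling and 45.9% under quantile normalization, and at day 10 the shares were 63.4%, 53.3% and 44.4%. The median change of the 10 genes was 0.36 at day 8 and 0.45 at day 10, and that of all genes 0.06 and 0.09. Day 8 against day 4 had 4 higher and 1 lower of the 10 (19.9% of all genes passed), and day 10 against day 8 had 1 higher and 1 lower (8.44% of all genes, 5.2% higher and 3.24% lower). With only the groups compared, 3 of the 10 passed between days 4 and 8. Without whole cell day 0 replicate 2, 4 of the 10 passed at day 10, Tgfbr1, Tgfbr2, Nodal and Lefty1. Without whole cell day 4 replicate 3, 4 passed between days 8 and 10, and 1 passed without day 8 replicates 1 or 2 or day 10 replicates 1 or 3.

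**Figure D3:**
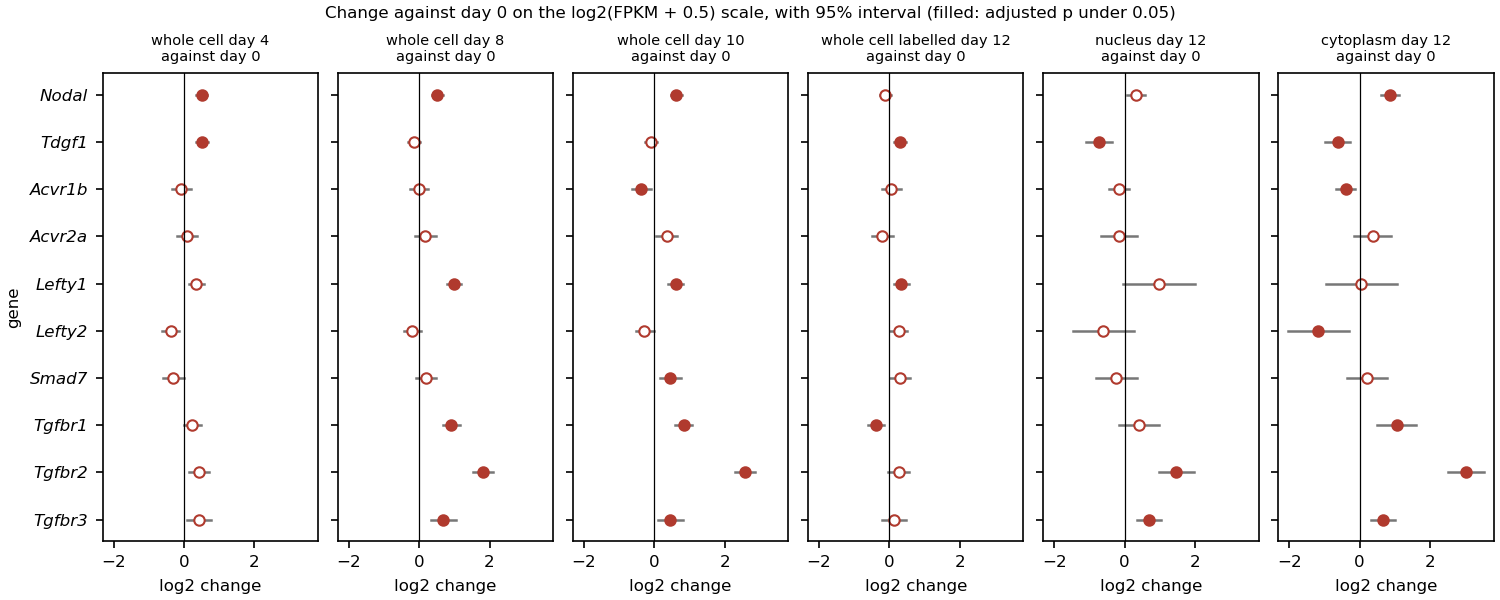
Log2 change of each of the 10 genes (rows) against day 0 in 6 comparisons (panels), with the 95% interval; filled points passed at an adjusted p under 0.05 in limma. Tgfbr2 has the largest change at days 8 and 10 (1.81 and 2.57) and in both fractions (1.47 and 3.03), and the panel labelled day 12 shows changes between -0.38 and 0.34.

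The whole cell libraries labelled day 12 showed only a part of the pattern of day 10. Tgfbr2, Tgfbr3 and Smad7 lay above day 0 without overlap but did not pass. Their means were 1.43, 1.24 and 1.25 times that of day 0, against 11.6, 1.95 and 1.39 times at day 10. Tgfbr2 held 0.700, 0.555 and 0.630 FPKM and Tgfbr1 3.33, 2.86 and 3.16, so that Tgfbr1 was lower than at day 0 (limma, -0.38 ± 0.11, adjusted p = 0.0398). Lefty1 (0.34 ± 0.10, adjusted p = 0.0358) and Tdgf1 (0.31 ± 0.08, adjusted p = 0.0194) were higher. These were 3 of the 10 genes, where 13.6% of all genes tested passed (10.2% as higher, 3.34% as lower), and non-overlapping ranges were found for 7 of 10 against 42.7% of all genes. All 3 calls were fragile. Without whole cell day 0 replicate 3, or without replicate 1 or 3 of the libraries labelled day 12, limma passed 0 of the 10, with 3 at an unadjusted p under 0.05 each time. With median-of-ratios scaling or quantile normalization Tgfbr1 alone passed.

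The fractions at day 12, where Dicer1 was low, gave a separate view with their own day 0 libraries. FPKM is relative within a fraction, so the values do not give the amount of RNA in a fraction. In the cytoplasm Tgfbr2 held 0.518, 0.529 and 0.266 FPKM at day 0 and 7.21, 6.78 and 7.22 at day 12, a ratio of means of 16.2. The groups lay far apart, with a change of 3.03 ± 0.23 (limma, adjusted p = 8.8e-06). Tgfbr1 went from 4.10, 5.00 and 5.41 FPKM to 10.7, 11.1 and 9.74, again without overlap (1.05 ± 0.26, limma adjusted p = 0.00959). Tgfbr3 was at 0.493, 0.497 and 0.503 FPKM and then at 1.03, 1.05 and 1.12 (0.65 ± 0.16, limma adjusted p = 0.00833). All 3 TGF-beta receptor genes were thus higher in the cytoplasm at day 12, as they were in whole cells at day 10.

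Nodal in the cytoplasm stood at 16.5, 18.3 and 17.7 FPKM at day 0 and at 31.7, 33.0 and 31.3 at day 12, and rose by 0.86 ± 0.12 (limma, adjusted p = 0.000331). Tdgf1 went the other way, from 325, 343 and 358 FPKM to 228, 223 and 213 (-0.62 ± 0.16, limma adjusted p = 0.0131), a fall that missed the threshold without cytoplasm day 0 replicate 3 (adjusted p = 0.0523). Ligand and co-receptor thus moved in opposite directions there. Lefty1 was at 58.7, 58.8 and 59.3 FPKM and then at 60.2, 59.9 and 62.7, a change of 0.05 whose 95% interval, -0.97 to 1.07, is wide because limma's fit shares its spread with the nuclear libraries. Lefty2 went from 50.7, 52.0 and 58.1 FPKM to 24.1, 26.2 and 20.7, which is 44.1% of day 0, and passed narrowly (-1.17 ± 0.39, limma adjusted p = 0.0408). That Lefty2 call was lost without any of the 6 cytoplasmic libraries (adjusted p = 0.0765 to 0.119), with quantile normalization (adjusted p = 0.066) and with no filter (adjusted p = 0.0652).

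The Lefty1 to Lefty2 ratio in the cytoplasm was 1.16, 1.13 and 1.02 at day 0 and 2.50, 2.28 and 3.03 at day 12, with no overlap (exact permutation test, p = 0.1, the smallest possible). In the nucleus it was 1.17, 1.33 and 1.63 at day 0 and 2.92, 5.05 and 4.74 at day 12, again with no overlap (exact permutation test, p = 0.1). The ratio was thus higher at day 12 in both fractions, in the cytoplasm with Lefty2 lower and Lefty1 near its day 0 level. Acvr1b was lower (9.56, 9.75 and 8.97 FPKM, then 6.81, 6.77 and 7.63, a change of -0.39 ± 0.12, limma adjusted p = 0.0322), a call lost without any of cytoplasm day 0 replicates 1 to 3 or day 12 replicates 1 and 2 (adjusted p = 0.062 to 0.103). Acvr2a (0.37, adjusted p = 0.264) and Smad7 (0.21, adjusted p = 0.601) did not pass in limma. With only the cytoplasmic groups fitted both passed (limma, adjusted p = 0.0325 and 0.0437). Acvr2a also passed with the 2 nuclear libraries that stood apart left out (adjusted p = 0.0174). In total, 4 of the 10 genes were higher and 3 lower in the cytoplasm, where 32.6% of all genes tested passed, 16% as higher and 16.6% as lower, and ranges did not overlap for 10 of 10 genes, against 64.8% of all genes. Without cytoplasm day 0 replicate 3, 4 of the 10 passed.

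In the nucleus the libraries spread more. Tgfbr2 held 2.81, 2.22 and 1.26 FPKM at day 0 and 8.11, 5.76 and 5.76 at day 12, with no overlap (1.47 ± 0.23, limma adjusted p = 0.000819). Tgfbr3 went from 0.919, 0.792 and 0.5 FPKM to 1.32, 1.72 and 1.39 (0.69 ± 0.16, limma adjusted p = 0.0064), and Tdgf1 from 284, 286 and 314 FPKM to 136, 207 and 203 (-0.72 ± 0.16, limma adjusted p = 0.00655). These 3 of the 10 passed, 2 higher and 1 lower, where 36.7% of all genes tested passed (15.1% as higher, 21.6% as lower), and they were also the 3 whose ranges did not overlap, against 42.0% of all genes. With only the nuclear groups fitted, Tgfbr2 alone passed, and with both nuclear libraries that stood apart left out 8 of the 10 passed. Tgfbr1 (0.41, limma adjusted p = 0.226), Acvr1b (-0.16, adjusted p = 0.349), Acvr2a (-0.16, adjusted p = 0.626) and Lefty2 (-0.61, adjusted p = 0.244) did not pass. With those 2 libraries left out Tgfbr1 gave -0.10 (adjusted p = 0.538). Lefty2 passed without nucleus day 0 replicate 3 (-1.07, limma adjusted p = 0.0234).

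Nuclear Lefty1 shows how far single libraries went. It held 58.6, 68.8 and 31.4 FPKM at day 0 and 39.4, 151 and 163 at day 12, where the outlying values belong to nucleus day 0 replicate 3 and nucleus day 12 replicate 1. The groups overlapped and the change did not pass (0.97 ± 0.46, limma adjusted p = 0.122), but without nucleus day 12 replicate 1 it was 1.64 (adjusted p = 0.00117). Smad7 behaved alike, at 16.6 FPKM in that replicate and 7.77 and 6.64 in the others, with a change of -0.23 (adjusted p = 0.523) that became -0.61 (adjusted p = 0.00421) without it. Nodal (26.1, 23.7 and 27.7 FPKM, then 27, 36.2 and 34.3) stood just outside the threshold (0.32 ± 0.12, limma adjusted p = 0.0535) and passed without nucleus day 12 replicate 1 (0.45, adjusted p = 0.00382) or day 0 replicate 3 (0.37, adjusted p = 0.0331). Malat1, a nuclear RNA, was at 80.4 FPKM in nucleus day 12 replicate 1 and at 223 and 254 in the others. Whether fractionation has a part in these values was not tested.

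**Figure D4:**
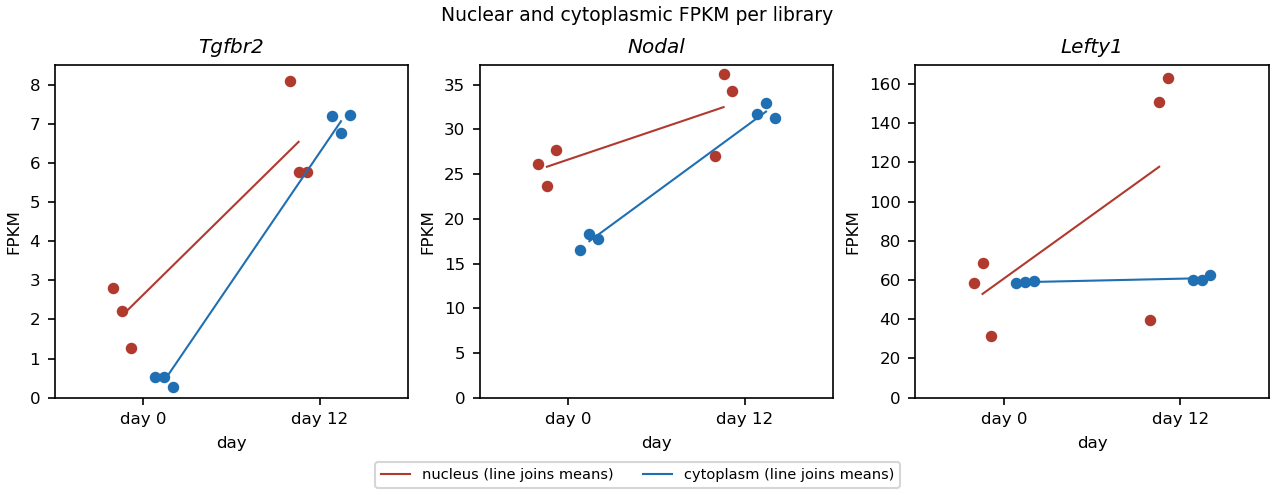
FPKM of Tgfbr2, Nodal and Lefty1 in nuclear and cytoplasmic libraries at days 0 and 12; points are libraries and lines join group means. Cytoplasmic Tgfbr2 goes from between 0.266 and 0.529 to between 6.78 and 7.22 FPKM, and nuclear Lefty1 at day 12 has 1 library at 39.4 and 2 at 151 and 163.

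Between the fractions, Tgfbr2 stood out at day 0. Its nuclear level of 2.10 ± 0.785 FPKM (SD, n = 3) against 0.437 ± 0.149 in the cytoplasm gave a difference of 1.43 ± 0.23 (limma, adjusted p = 0.000636). Acvr2a (0.78 ± 0.23, adjusted p = 0.0203) and Nodal (0.55 ± 0.12, adjusted p = 0.00355) were higher in the nucleus as well, 3 of the 10 genes where 41.8% of all genes passed, 25.3% as higher in the nucleus. The Acvr2a call was lost with quantile normalization (0.47, adjusted p = 0.146) and without nucleus or cytoplasm day 0 replicates 1 or 2 (adjusted p = 0.0548 to 0.0755). With both outlying nuclear libraries left out 7 of the 10 passed. At day 12 the Tgfbr2 fractions no longer differed beyond their spread (6.55 ± 1.36 and 7.07 ± 0.252 FPKM, limma -0.12, 95% interval -0.62 to 0.38, adjusted p = 0.723), and Acvr1b alone passed (0.41 ± 0.12, adjusted p = 0.0265), where 34.1% of all genes did, 18.4% as higher in the nucleus. That call was lost with quantile normalization (0.34, adjusted p = 0.0668), with only those groups fitted (adjusted p = 0.0614), and without nucleus day 12 replicates 2 or 3 or cytoplasm day 12 replicates 1 or 2 (adjusted p = 0.0835 to 0.104). Without nucleus day 0 replicate 3 or nucleus day 12 replicate 1, 3 and 4 of the 10 passed. The change of the nucleus to cytoplasm difference between the days was tested directly and passed for Tgfbr2 alone, -1.55 ± 0.32 (limma, adjusted p = 0.0464), where 1.33% of all genes passed. It was lost without each fraction library in turn other than nucleus day 0 replicate 3 and nucleus day 12 replicate 1 (adjusted p = 0.0726 to 0.13). Without nucleus day 12 replicate 1, 3 of the 10 passed, and with both outlying nuclear libraries left out 8 did.

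A marker of another cell type was also higher in the nucleus than in the cytoplasm at day 0. Col1a2, a collagen gene of fibroblasts, was at 18.9, 16.2 and 9.26 FPKM in the 3 nuclear libraries of day 0. It was at 0.127 to 1.33 FPKM in all other libraries. In those 3 nuclear libraries of day 0 Tgfbr2 held 2.81, 2.22 and 1.26 FPKM, Tgfbr1 6.08, 6.07 and 2.99, and Tgfbr3 0.919, 0.792 and 0.5. Replicate 3, which stood apart, also held less Dicer1 (7.86 FPKM against 15.1 and 16.8). The 5 fibroblast markers summed to 16.2 to 29.1 FPKM in nuclei at day 0, 7.69 to 9.26 in the cytoplasm at day 0, 2.18 to 7.40 in nuclei at day 12 and 2.43 to 2.96 in the cytoplasm at day 12. The nuclear sum of day 0 was carried by Col1a2. Thy1, a surface marker of fibroblasts, was no higher in nuclei than in the cytoplasm at day 0 (6.55 ± 0.625 and 8.02 ± 0.963 FPKM, SD, n = 3). The matrix gene Postn held 1.67 ± 0.893 FPKM in nuclei and 0.0275 ± 0.0156 in the cytoplasm at day 0. At day 12 it held 2.84 ± 2.27 and 0.0369 ± 0.0268. Of the 3 tested fibroblast genes 2 passed as higher in nuclei at day 0 and none as lower, where 25.3% and 16.4% of all genes did. Col1a2 went from 14.8 ± 4.99 to 0.596 ± 0.0571 FPKM in nuclei between days 0 and 12, and from 0.455 ± 0.0863 to 0.159 ± 0.029 in the cytoplasm. For the change of the ratio, 1 of the 3 tested fibroblast genes passed as lower in limma, where 1.05% of all genes did. The median of the 3 was -0.13, against -0.06 over all genes. Fibroblasts are known to express Tgfbr2. The part of such RNA in the nuclear day 0 level of Tgfbr2, and so in the change of the ratio, was not tested. The fibroblast sum in whole cells was 8.32 to 8.70 FPKM at day 0, 6.5 to 7.03 at day 8 and 3.67 to 5.32 at day 10. At day 8, 2 of the 3 tested fibroblast genes were higher and 1 lower, where 20.2% of all genes were higher and 9.62% lower. At day 10, 1 was higher and 1 lower, where 27.7% and 16% of all genes were. Thy1 was the largest part of the sum at day 0 (7.62 ± 0.332 FPKM, SD, n = 3). It fell to 1.82 ± 0.465 at day 10 (limma, -1.83, adjusted p = 1.07e-06). Dcn, which encodes a matrix proteoglycan, rose from 0.152 ± 0.0296 FPKM to 2.29 ± 0.232 at day 8 and 1.59 ± 0.315 at day 10 (limma, 1.67 at day 10).

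Of the other marker lists, the trophoblast list rose in whole cells, from a sum of 119 to 168 FPKM at day 0 to 380 to 431 at day 8 and 489 to 530 at day 10. In the libraries labelled day 12 its sum was 325 to 375 FPKM. Nearly all of this sum was Krt8 and Krt18, keratin genes also found in other epithelia, and all 4 of the list's tested genes were higher at day 10. The more specific Cdx2 and Gata3 reached 1.06 ± 0.408 and 1.81 ± 0.119 FPKM at day 10 (SD, n = 3) from 0.196 ± 0.0436 and 0.290 ± 0.129. In the libraries labelled day 12 these 2 genes were at 0.329 ± 0.0995 and 0.380 ± 0.0988 FPKM. Elf5 stayed at or below 0.106 FPKM in whole cells. The extraembryonic endoderm list summed to 2.35 to 2.71 FPKM at day 0, 4.91 to 6.49 at day 4 and 3.27 to 3.83 at day 10. At day 4, 3 of its 5 genes were higher and none was lower, where 4.88% of all genes were higher. The mesoderm list summed to 2.25 to 2.97 FPKM at day 0 and 3.57 to 4.81 at day 10. The part of such cells in the changes of the 10 genes was not tested.

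The other genes of the pathway were read from lists by role, in whole cells at day 10 against day 0. Of all genes tested in that comparison 27.7% were higher and 16% were lower, and each count below is to be set against those shares. The lists were chosen with earlier results of these data known, so the counts describe these genes and do not test the pathway. Of 6 tested ligand genes 5 were higher and none was lower. Tgfb2, a TGF-beta ligand, went from 0.758 ± 0.168 to 4.85 ± 0.114 FPKM (SD, n = 3; log2 change 2.10 ± 0.13, limma adjusted p = 1.07e-07). Inhbb, which encodes an activin subunit, went from 1.86 ± 0.151 to 7.88 ± 0.621 FPKM (1.83), and Gdf11, a ligand that uses activin receptors, from 0.544 ± 0.0934 to 2.16 ± 0.0519 FPKM (1.35). The co-receptor gene Eng (endoglin) was the 1 of 3 other receptor genes that rose, from 7.11 ± 0.169 to 17.3 ± 0.106 FPKM (1.23).

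Of the Smad proteins and partners of this branch 2 of 5 tested were higher and none lower, and of the other inhibitors and feedback genes 5 of 13 were higher and none lower (8 passed without whole cell day 4 replicate 3 and 9 with only those groups fitted). These 2 shares stood nearer to that of all genes than the share of the ligands did. Pmepa1, a feedback inhibitor that TGF-beta induces, went from 2.55 ± 0.128 to 11.5 ± 0.575 FPKM (1.97 ± 0.14, limma adjusted p = 2.19e-07), and Smad6, an inhibitory Smad that acts mainly on BMP receptors, from 1.32 ± 0.138 to 5.60 ± 0.526 FPKM (1.74). Among genes of ligand processing and latency 6 of 8 were higher and none lower. Thbs1, thrombospondin, which can release TGF-beta from its latent form, went from 4.85 ± 1.60 to 69.0 ± 2.20 FPKM (3.75 ± 0.34, limma adjusted p = 1.77e-06). Itgav, the integrin subunit that binds latent TGF-beta, gave 1.66, and Furin, a protease that cleaves the precursors, 1.10.

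Of the textbook TGF-beta target genes 5 of 7 were higher and none lower, with a median change of 1.57 against 0.09 over all genes. Cdkn2b, a cell cycle inhibitor gene, went from 1.81 ± 0.127 to 11.4 ± 0.656 FPKM (2.37 ± 0.17, limma adjusted p = 3.4e-07). Tagln, a smooth muscle cytoskeleton gene, Ccn2, a matrix signalling gene, and Tgfbi, an extracellular matrix gene, gave 2.04, 1.86 and 1.57. These genes answer to other signals too, and no measurement here separates their inputs. Of the Nodal target genes Gsc, Eomes, Mixl1 and T, which act in early embryonic patterning, 0 of 4 passed in limma and 1 had an unadjusted p under 0.05 (Eomes, 0.36, adjusted p = 0.0704). With only those groups fitted 1 passed, and the count covers these 4 genes alone. In the BMP branch 8 of 12 were higher and 1 was lower, led by the BMP target genes Id1 (1.53) and Id2 (1.52).

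**Figure D5:**
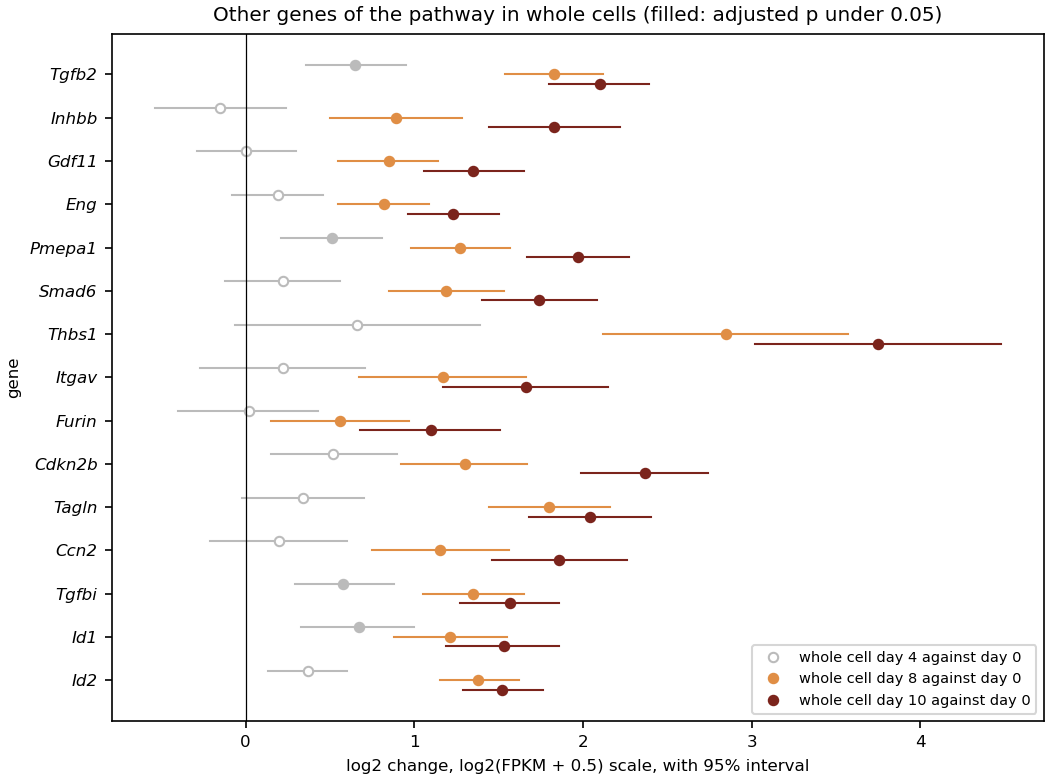
Log2 change against day 0 in whole cells at days 4, 8 and 10 (colours) for 15 other genes of the pathway (rows), with 95% intervals; filled points passed in limma. These genes were selected by their day 10 change, so that all 15 points of day 10 lie at 1.10 or above is a consequence of the choice; at day 4 Tgfb2, Pmepa1, Tgfbi and Id1 passed.

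The ligand, target and inhibitor lists were also counted in the other comparisons. At day 4, when 4.88% of all genes were higher, the ligand list had 1 of 6 higher, the TGF-beta target list 1 of 7 and the inhibitor list 1 of 13, and no gene of these was lower. At day 8, with 20.2% of all genes higher, they had 4, 5 and 4 higher, again with none lower. In the libraries labelled day 12, with 10.2% higher, they had 2, 3 and 2 higher and none lower. In the cytoplasm at day 12, where 16% of all genes were higher and 16.6% lower, the ligand list had 4 higher and 1 lower of 7, and the TGF-beta target list 4 higher and 1 lower of 7, with Cdkn2b at 1.94 ± 0.15 (limma, adjusted p = 9.02e-06). In the nucleus, where 15.1% of all genes were higher and 21.6% lower, the ligand list had 3 higher and 2 lower of 7 and the target list 2 higher and 3 lower of 7. The lower targets were the transcription factor gene Junb (-0.41), Col1a1 (-1.87) and Tagln (-0.64).

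The genes with the most similar course to each of the 10 were found by Pearson correlation of the mean log2 values over the 9 groups. For Tgfbr2 these were Itpripl2 (r = 0.996), Cd81 (r = 0.992) and Arhgef5 (r = 0.992), and for Tgfbr1 Tm9sf3 (r = 0.995), Plekha3 and Mob1a (r = 0.982 each). Nodal was nearest to Dusp12 (r = 0.942) and to Foxd3 (r = 0.937), Lefty1 to Ifitm3 (r = 0.908), Lefty2 to Dhx34 (r = 0.967), Tdgf1 to Lyrm4 (r = 0.955) and Smad7 to Hspb8 (r = 0.903). Among the 10 genes themselves Tgfbr2 and Tgfbr3 had the highest r, 0.85, and Tgfbr3 and Lefty2 the lowest, -0.84. These values describe 9 group means that share libraries and fractions and were the highest among 11372 or 11373 named genes that reached 2 FPKM on average in some group.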

How the data were processed

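The genes and gene lists were chosen with earlier results of these data known. Each library has a table of FPKM values for Ensembl genes, which the authors computed and deposited; 100-base paired-end directional libraries of polyadenylated RNA were made, per the labels' protocols. TopHat2 2.0.9, Cufflinks 1.3.0 and mm9 are named per the submitters' processing notes. Not given in the sources used here are the annotation, the strand setting, the treatment of reads with several matches and the read totals.

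Symbols, positions and 3′ UTRs came from GENCODE M21 (GRCm38), not the mm9 build of the files, and 36253 of 38123 genes had a symbol. FPKM values were put on a log2 scale after adding 0.5 and tested by limma (version 3.58.1, R 4.3.3) with a mean-variance trend and Benjamini-Hochberg adjustment over all genes at 0.05. One fit held the 15 whole cell libraries and 15991 genes, another the 12 fraction libraries and 17124 genes, keeping genes that averaged 0.5 FPKM or more in 1 group. Because of the added 0.5, fold changes of low genes come out too small. The labels speak of biological replicates without saying that cultures were separate, and a p-value covers only the spread among these libraries. No libraries held identical values.

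Other pathway genes were named where they passed at day 10 with a change of at least 1, at most 4 per list; the 10 genes are all described. Some genes of the pathway lists are not reported here, and the list counts leave them out. Exact permutation tests and ratios used scipy 1.17.1. Tested on simulated data for day 10, limma recovered 80% of genes changed by 1 and 94% of those changed by 2 on the log2 scale, over 14508 genes, and 8 of 182 calls were false. In the cytoplasm simulation the shares were 75% and 98% over 15079 genes, and 15 of 188 calls were false. In each simulation the 200 changed genes were drawn from those with a log2(FPKM + 0.5) above 1 at day 0. The shares recovered therefore do not cover genes as low as Tgfbr2 (0.438 FPKM) and Tgfbr3 (0.322 FPKM) in whole cells at day 0. Far fewer genes were changed than passed in the data, so the false calls give no rate for the data. Alternatives were other pseudocounts, filters, scalings and sets of groups, a replicate block, each replicate left out, and, added after seeing the data, coding and lncRNA genes alone and 2 nuclear libraries left out together.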

Additional observations from a re-analysis of the deposited data

Results flagged for a closer look

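Tgfbr2 drew attention because its change between days 0 and 12 differed between the fractions by a direct test of that difference. The nucleus to cytoplasm difference changed by -1.55 ± 0.32 on the log2 scale (95% interval -2.27 to -0.84, limma adjusted p = 0.0464). Nuclear Tgfbr2 went from 2.10 ± 0.785 to 6.55 ± 1.36 FPKM (SD, n = 3) and cytoplasmic Tgfbr2 from 0.437 ± 0.149 to 7.07 ± 0.252. Over the alternatives the value lay between -1.19 and -2.13 and the adjusted p between 0.00016 and 0.13. The nuclear libraries of day 0 also held Col1a2 at 18.9, 16.2 and 9.26 FPKM, beside Tgfbr2 at 2.81, 2.22 and 1.26. Nuclear Col1a2 was at 0.596 ± 0.0571 FPKM at day 12. The other fibroblast markers differed. Thy1 was no higher in nuclei than in the cytoplasm at day 0 (6.55 ± 0.625 and 8.02 ± 0.963 FPKM), while Postn was (1.67 ± 0.893 and 0.0275 ± 0.0156). Nuclear Postn was at 2.84 ± 2.27 FPKM at day 12. The part of fibroblast RNA in the result was not tested.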

How the results depend on the processing

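The calls of Tgfbr1, Tgfbr2, Nodal and Lefty1 at days 8 and 10, of Tgfbr1, Tgfbr2, Tgfbr3 and Nodal in the cytoplasm, and of Tgfbr2 in the nucleus held under every alternative run. The number of the 10 genes that passed at day 4 was 4 with a pseudocount of 0.1 and 0 with only the groups compared. For the libraries labelled day 12 it was 1 with no filter, with median-of-ratios scaling, with quantile normalization and with the replicate block. It was 3 for day 8 against day 4 and 1 in the nucleus with only the groups compared. For the nucleus against the cytoplasm at day 12 it was 0 with quantile normalization, with 2 genes at an unadjusted p under 0.05 in limma. For the change of that ratio it was 0 with a pseudocount of 1, no filter, median-of-ratios scaling, quantile normalization or the replicate block, with 2 genes at an unadjusted p under 0.05 each time. Without the 2 outlying nuclear libraries it was 8 in the nucleus, 7 and 6 between fractions at days 0 and 12, and 8 for the ratio. The replicate numbers did not pair the libraries (correlations of deviations from group means between -0.36 and 0.27), and with the block 1 of the 10 passed between days 8 and 10. Under the replicate block these calls had an adjusted p above 0.05 in limma: Tgfbr3 at day 10 (0.0512), Lefty1 between days 8 and 10 (0.0516), Tgfbr1 (0.058) and Lefty1 (0.0521) in the libraries labelled day 12, Acvr1b (0.052) and Lefty2 (0.0564) in the cytoplasm, and the Tgfbr2 ratio (0.0508).

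Leaving out each replicate in turn, the number of the 10 that passed lay between 2 and 5 at day 4, 5 and 5 at day 8, 4 and 9 at day 10, 0 and 4 for the libraries labelled day 12, 4 and 5 between days 4 and 8, and 1 and 4 between days 8 and 10. It lay between 4 and 7 in the cytoplasm, 3 and 6 in the nucleus, 2 and 4 and 0 and 4 between fractions at days 0 and 12, and 0 and 3 for the ratio.

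Changes of sign were seen only in differences that did not pass. Median-of-ratios scaling gave -0.02 for Acvr1b and -0.07 for Nodal between days 4 and 8, -0.02 for Smad7 between fractions at day 0, and -0.03 for Nodal and -0.01 for Lefty2 at day 12. Quantile normalization gave Acvr2a -0.01 at day 4, -0.04 at day 8 and -0.04 between days 4 and 8, Acvr1b -0.05 between those days, -0.06 for Tgfbr3 and -0.02 for Acvr1b in the libraries labelled day 12, and between fractions -0.15 for Tgfbr3 and -0.05 for Smad7 at day 0 and -0.01 for Tgfbr3 at day 12. The Tgfbr3 ratio change was -0.02 with a pseudocount of 0.1. Without the 2 nuclear libraries Tgfbr1 was -0.10 in the nucleus, Lefty1 0.11 between fractions at day 0, Acvr2a -0.01 at day 12, and the ratio changes -0.05 for Tgfbr3 and 0.15 for Tdgf1.

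With each replicate left out, Acvr1b ranged from -0.15 to 0.07 at day 4 and from -0.07 to 0.15 between days 4 and 8, where Acvr2a ranged from -0.01 to 0.18 and Nodal from -0.01 to 0.05. Smad7 in the nucleus ranged from -0.61 to 0.02, and Lefty1 between fractions at day 0 from -0.45 to 0.11. Between fractions at day 12 Acvr2a ranged from -0.01 to 0.41, Nodal from -0.07 to 0.14 and Lefty2 from -0.22 to 0.44, and the ratio changes were -0.11 to 0.14 for Tgfbr3 and -0.20 to 0.10 for Tdgf1.

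Over all genes, 1071 passed at day 4, 438 with only the groups compared, 509 among coding and lncRNA genes alone and 1721 without whole cell day 4 replicate 3. With only the groups compared, 2170 became 3793 for the libraries labelled day 12, 3181 became 351 between days 4 and 8, 1349 became 2834 between days 8 and 10, 5574 became 9841 in the cytoplasm and 6281 became 2112 in the nucleus. Without whole cell day 4 replicate 3 the libraries labelled day 12 gave 4674 and days 8 to 10 gave 3133. For the ratio 227 became 137 with quantile normalization, 53 with the block, 24 to 1699 with 1 replicate left out and 6580 without the 2 nuclear libraries, where the fraction comparisons gave 9613 to 10885. Quantile normalization moved the median of all genes from 0.06 to -0.07 at day 8, from 0.09 to -0.08 at day 10, from 0.06 to -0.06 for the libraries labelled day 12, and between fractions from 0.12 to -0.10 and from 0.06 to -0.08. It moved the share of calls that were higher from 72.8% to 56.5% at day 4, from 75.4% to 44.9% for the libraries labelled day 12, and between fractions from 60.7% to 39.4% at day 0 and from 54.1% to 39.6% at day 12. Read totals are not known, so counting error could not be given.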
